A study of Homo sapiens with 6 samples.

Results

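The genes described here are 42 genes of antioxidant defence, glutathione metabolism and ferroptosis, chosen by symbol from what their products do. The choice was made with earlier results of these data known. Each was read through the probe set with the highest mean among those annotated to that gene alone, which gave 40 of the 42 a value, out of 19775 genes in all. PRDX5 and FTH1 were not analysed here. They were compared in MDA-MB-231, an invasive breast cancer cell line, between 3 arrays of shATAD3A knockdown cells and 3 arrays of shGFP control cells. ATAD3A is an ATPase of the inner mitochondrial membrane. Both groups carried a pLKO.1 lentiviral short hairpin, against ATAD3A or against GFP, had been selected for 2 weeks in puromycin at 1.0 µg/ml, and were resistant cells at passage 2. The labels do not say how many hairpins were used, whether the cells were pools or clones, or whether the 3 replicates of a group were grown apart, and if they were not, the tests cover technical spread alone. All values are log2 expression, differences are knockdown minus control, errors are SD over 3 arrays or SE of the limma fit, and a gene is called when its limma p, adjusted by Benjamini-Hochberg over all 19775 genes, is under 0.05.

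ATAD3A itself differed by -0.49 ± 0.11 (SE, adjusted p = 0.0129), or 29.0% less, on 1 probe set that may also bind its paralogs. All 7 markers chosen for this line, among them VIM, CD44 and EGFR, were well above the low mode of the values, the peak of dim genes that ends at 4.69. Of these 7, CD44, AXL, MSN and CAV1 fell, by 0.25 to 0.45, ANXA1 rose by 0.17, and VIM and EGFR were not called. Their summed level was 99.1 to 99.2 in control arrays and 97.8 to 98.0 in knockdown arrays. ESR1, PGR and FOXA1 lay in it. So did all 4 leukocyte, all 5 fibroblast and both erythroid markers measured, while 1 of 4 endothelial markers, PECAM1, lay above it in control and changed by -1.27. Of the 6 luminal and hormone receptor markers, 3 were above the low mode and all 3 rose, EPCAM by 1.98, KRT8 by 1.42 and ERBB2 by 0.51. The summed level of those 6 markers was 36.5 to 36.7 in control arrays and 40.3 to 40.7 in knockdown arrays. The part of either marker shift in the results below was not tested. In a culture of 1 line, a change of RNA per cell cannot be told apart from a change in the share of cells that express a gene.

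Cells remove peroxides through glutathione, a tripeptide built from cysteine, and through thioredoxin, both of which are kept reduced by NADPH. The transcription factor NRF2, encoded by NFE2L2 and held in check by KEAP1, binds antioxidant response elements with small MAF proteins and drives many of these genes, while BACH1 competes for the same elements as a repressor. Ferroptosis is a form of cell death in which iron drives the peroxidation of polyunsaturated membrane lipids. It is held back by cystine uptake, glutathione and the peroxidase GPX4, and by AIFM2, also called FSP1, which regenerates the reduced form of coenzyme Q.

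Most of these genes were higher in the knockdown, by modest amounts. Of the 40 measured, 28 were called, where 33.6% of all genes were. Of these, 21 rose and 7 fell, where 19.7% of all genes rose and 13.9% fell, and the other 12 members were not called. CBS, SOD3, GPX2 and GPX7 lay in the low mode, and none of these 4 was called. Of the 36 above it, 28 (77.8%) were called, against 61.8% of all 10249 genes above the low mode. The share that rose was 58.3%, against 36.4%, and the share that fell was 19.4%, against 25.4%. As the members were chosen with earlier results of these data known, these shares describe them and test nothing. The members were brighter than other genes, with a median level of 11.7 against 9.25. Among genes with a level over 10, 14 of 26 members rose and 6 fell, 76.9% together, where 38.1% of all such genes rose and 28.1% fell, 66.1% together. The sizes did not stand out, since the median difference regardless of sign was 0.30 in the 36 members and 0.30 in all genes above the low mode. Differences of at least 2-fold were called in 4 members, 11.1% of those above the low mode, against 9.87% of all genes above it and 5.82% of all genes. SLC7A11 and MGST1 rose that far, which 5.73% of genes above the low mode did, and CTH and ACSL4 fell that far, which 4.15% did. The groups did not overlap for 34 of the 36 members (94.4%), where this held for 71.8% of all genes above the low mode. The exceptions were KEAP1 and SOD1. Over all 40 members the groups did not overlap for 35, against 42% of all genes.

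**Figure D1:**
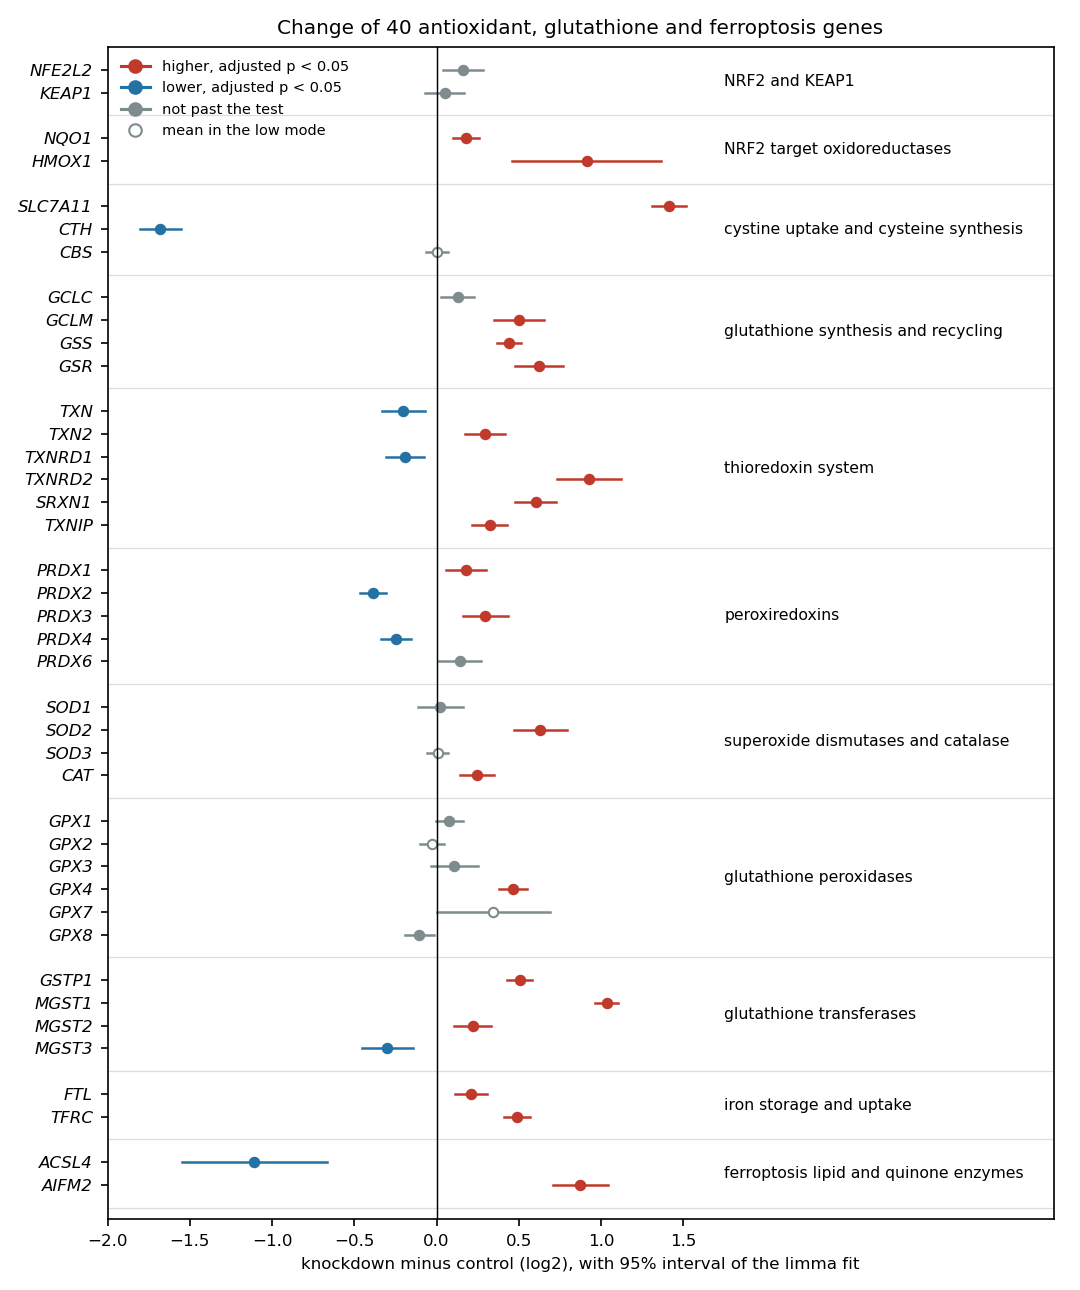
Difference between knockdown and control arrays on the log2 scale for the 40 measured genes, grouped by role, with the 95% interval of the limma fit over 3 arrays a group. Filled red and blue points passed the test, grey points did not, and open points have a mean in the low mode. SLC7A11 lies farthest to the right at 1.41 and CTH farthest to the left at -1.68.

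Promoter sequences from RefSeq (GRCh38.p14) were found for 32 of the 42 genes. SLC7A11, HMOX1, GSR, GSS, TXN2, PRDX1, PRDX6, SOD1, MGST2 and FTH1 had none and were not searched. In the 32, the 250 bases before 1 start site a gene were searched on both strands for the core of the antioxidant response element, TGACNNNGC. Any other start sites of these genes were not searched. It was present in 6 of 32 (18.8%), against 11% of 27303 promoters in all and 12% of 15383 promoters of genes measured here. It was present in 12.4% of 8525 promoters of genes above the low mode. The 32 are not matched to that last set, since they include members in the low mode and PRDX5, which was not measured. These 6 were GCLM, GSTP1, AIFM2, TXNRD1, CBS and GPX2. GCLM, GSTP1 and AIFM2 rose, TXNRD1 fell, and CBS and GPX2 lay in the low mode. Of the 25 measured members without the core in this window, 11 rose, 6 fell and 8 were not called. The core begins 34 bases before the start site of GCLM, 66 before that of GSTP1, 22 before that of AIFM2 and 99 before that of TXNRD1. A core of the element that ATF4 binds with C/EBP proteins, TGATGNAA, was found in the window of 1 member of the 32, GPX8. It was found in 2.31% of promoters of genes measured here and in 1.31% of those of genes above the low mode. The 4 promoters with the antioxidant core whose genes were called are printed 5′ to 3′ with that core, on either strand, in capitals. Those of CTH and MGST1, which were among the 4 members past 2-fold, follow for comparison and hold neither core in this window. ACSL4, also past 2-fold, holds neither core there and is not printed, and SLC7A11 was not searched. A match is a description of letters only.
GCLM, chr1:93909431-93909680, minus strand: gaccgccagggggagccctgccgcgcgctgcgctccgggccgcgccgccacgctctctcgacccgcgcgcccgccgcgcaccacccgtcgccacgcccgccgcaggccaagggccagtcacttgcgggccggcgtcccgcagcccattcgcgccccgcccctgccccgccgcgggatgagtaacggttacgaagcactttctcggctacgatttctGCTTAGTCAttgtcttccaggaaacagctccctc
GSTP1, chr11:67583562-67583811, plus strand: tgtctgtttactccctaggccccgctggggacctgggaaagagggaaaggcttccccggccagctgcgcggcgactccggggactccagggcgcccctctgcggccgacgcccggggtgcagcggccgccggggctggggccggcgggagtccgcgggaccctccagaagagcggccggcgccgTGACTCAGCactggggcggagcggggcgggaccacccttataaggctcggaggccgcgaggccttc
AIFM2, chr10:70132826-70133075, minus strand: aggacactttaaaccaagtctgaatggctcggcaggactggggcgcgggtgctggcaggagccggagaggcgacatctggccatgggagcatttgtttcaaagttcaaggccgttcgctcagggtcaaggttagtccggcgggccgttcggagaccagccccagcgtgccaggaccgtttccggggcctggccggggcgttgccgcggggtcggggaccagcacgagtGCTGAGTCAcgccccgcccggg
TXNRD1, chr12:104215529-104215778, plus strand: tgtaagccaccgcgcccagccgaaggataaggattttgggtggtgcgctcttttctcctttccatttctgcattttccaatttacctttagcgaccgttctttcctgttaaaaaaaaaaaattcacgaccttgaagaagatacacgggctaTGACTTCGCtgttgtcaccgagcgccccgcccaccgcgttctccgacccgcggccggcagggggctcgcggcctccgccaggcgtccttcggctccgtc
CTH, chr1:70411018-70411267, plus strand: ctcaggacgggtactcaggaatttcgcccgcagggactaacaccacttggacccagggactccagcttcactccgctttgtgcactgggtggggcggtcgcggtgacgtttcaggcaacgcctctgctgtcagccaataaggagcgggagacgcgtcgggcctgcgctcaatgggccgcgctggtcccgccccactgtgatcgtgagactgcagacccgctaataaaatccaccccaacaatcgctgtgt
MGST1, chr12:16347395-16347644, plus strand: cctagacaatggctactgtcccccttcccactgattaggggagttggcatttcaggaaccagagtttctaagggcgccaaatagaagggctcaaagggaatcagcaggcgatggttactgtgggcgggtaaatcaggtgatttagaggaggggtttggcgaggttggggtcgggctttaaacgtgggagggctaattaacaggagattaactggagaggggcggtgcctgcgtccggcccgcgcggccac

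The NRF2 and KEAP1 transcripts moved little. Other regulators, described below, moved more, with BACH1 lower by 1.39 on the log2 scale and PGAM5 higher by 1.58. NFE2L2, which encodes NRF2, read 12.31, 12.35 and 12.34 in control arrays and 12.57, 12.39 and 12.52 in knockdown arrays. All knockdown arrays were above all control arrays, but the difference of 0.16 ± 0.050 (SE) did not pass the test (adjusted p = 0.0551). It passed without knockdown replicate 2, at 0.21 (adjusted p = 0.00857), and in 5 other settings given at the end. In 13 of the 19 settings it did not pass, among them quantile normalization, at 0.13 (adjusted p = 0.156). Its smallest difference over the settings was 0.010, and its highest adjusted p was 0.87. The neighbours of NFE2L2 above the low mode, a measure described below, had a median of 0.15. KEAP1 read 10.11, 10.07 and 10.06 in control and 10.05, 10.11 and 10.21 in knockdown. These groups overlapped, and the 95% interval of the difference ran from -0.069 to 0.17 (adjusted p = 0.604).

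NQO1, a quinone reductase used as a marker of NRF2 activity, read 11.97, 11.99 and 11.93 in control and 12.16, 12.16 and 12.10 in knockdown. The groups did not overlap and NQO1 rose by 0.18 ± 0.032 (SE, adjusted p = 0.00678), or 13.1%. Its other probe sets did not settle this, with 0.26 (adjusted p = 0.00422) on one and -0.084 (adjusted p = 0.585) on the other. HMOX1, which breaks down heme and releases its iron, read 6.57, 6.10 and 6.79 in control and 7.23, 7.41 and 7.55 in knockdown. It was among the dimmest members above the low mode, control replicate 2 was the lowest array, and every knockdown array exceeded every control array. HMOX1 rose by 0.91 ± 0.18 (SE, adjusted p = 0.0103), or 1.88-fold.

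The members with the largest rise and the largest fall were the transcripts of a cystine transporter and of an enzyme that makes cysteine. SLC7A11, the cystine transporter of system xc-, read 10.50, 10.38 and 10.43 in control and 11.86, 11.81 and 11.88 in knockdown. The groups stood far apart, with little spread within either, and SLC7A11 rose by 1.41 ± 0.042 (SE, adjusted p = 5.88e-06), or 2.66-fold. CTH, cystathionine gamma-lyase, the last enzyme of the transsulfuration route that makes cysteine from methionine, read 10.48, 10.51 and 10.60 in control and 8.77, 8.89 and 8.90 in knockdown. All knockdown arrays were well below all control arrays, and CTH fell by 1.68 on the log2 scale, with an SE of 0.050 (adjusted p = 5.88e-06), to 0.31 of its control level. CBS, which catalyses the step before CTH, was in the low mode in both groups, at 2.04 and 2.05. SLC3A2, the partner chain of SLC7A11 at the membrane, rose by 0.43 ± 0.060 (SE, adjusted p = 0.00225).

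**Figure D2:**
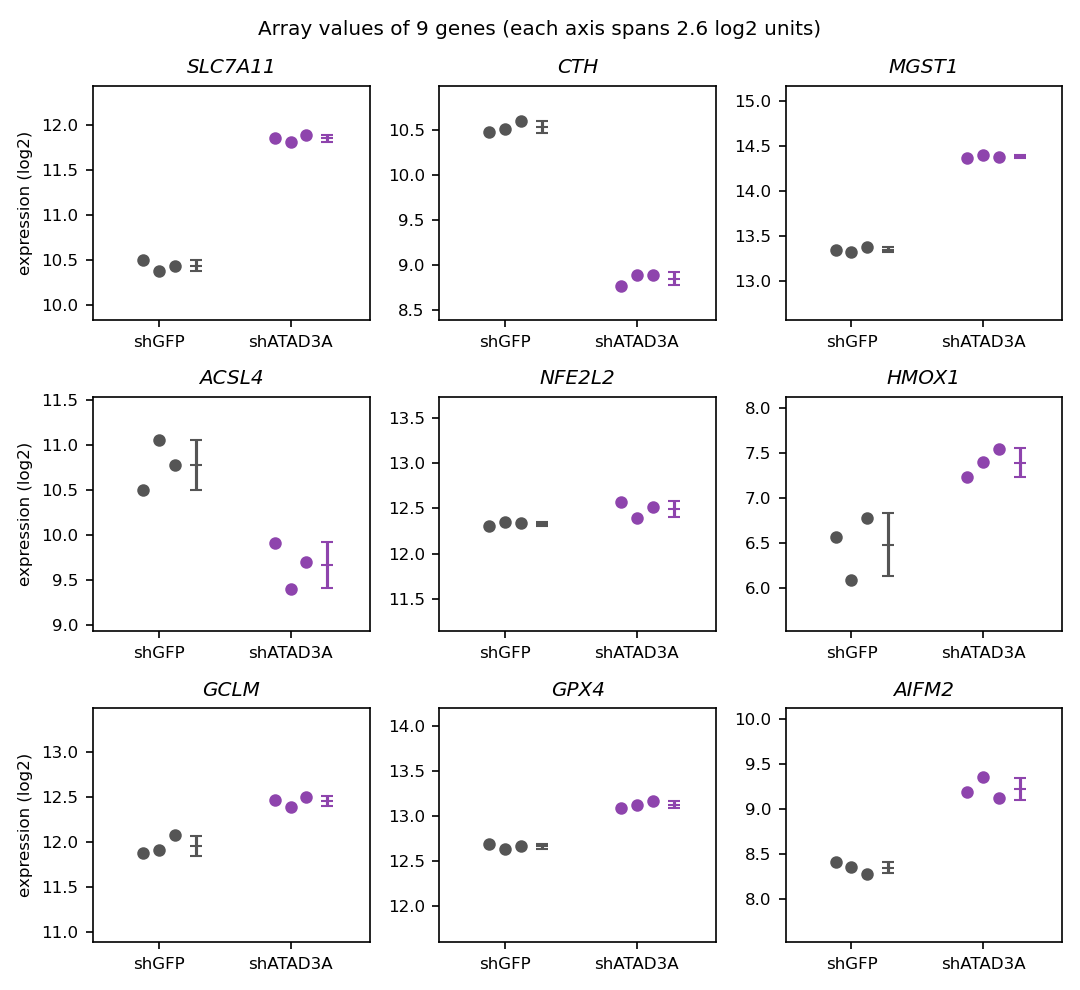
Log2 expression of 9 genes in each of the 3 shGFP and 3 shATAD3A arrays (points), with the mean and SD of each group beside them, on axes of equal span. SLC7A11 and CTH differ by many times the spread of their groups, while the NFE2L2 groups are separated by 0.16 and ACSL4 and HMOX1 vary most among arrays of a group.

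Of the 4 genes of glutathione synthesis and recycling, 3 rose, where 36.4% of all genes above the low mode did. GCLM, the modifier subunit of the rate-limiting glutamate-cysteine ligase, whose promoter is printed above, read 11.88, 11.91 and 12.08 in control and 12.47, 12.39 and 12.49 in knockdown. The groups did not overlap and GCLM rose by 0.50 ± 0.062 (SE, adjusted p = 0.00127), or 1.41-fold. GCLC, the catalytic subunit of the same enzyme, differed by 0.13 ± 0.040 (SE), which did not pass (adjusted p = 0.0567). GCLC passed without knockdown replicate 1, at 0.16 (adjusted p = 0.0314), and in 4 other settings given at the end. It did not pass in 14 of the 19 settings. GSS, which adds glycine in the final step, rose by 0.44, and GSR, which reduces oxidised glutathione, rose by 0.62.

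The 6 thioredoxin system genes were all called, 4 upward and 2 downward, where 61.8% of all genes above the low mode were called. The mitochondrial pair rose: TXN2, mitochondrial thioredoxin, by 0.29 ± 0.049 (SE, adjusted p = 0.00459), and TXNRD2, its reductase, from 5.73 ± 0.030 to 6.65 ± 0.15 (SD, n = 3; limma adjusted p = 0.000256), a difference of 0.93. The other TXNRD2 probe set lay in the low mode and gave -0.072 (adjusted p = 0.202). The cytosolic pair was lower, TXN by 0.20 and its reductase TXNRD1 by 0.19, each on a very bright probe set at 15.1 and 14.3 in control. Both of these calls were narrow. TXN was no longer called when control replicate 2 (adjusted p = 0.0957), control replicate 3 (0.0953), knockdown replicate 2 (0.0922) or knockdown replicate 3 (0.0983) was left out. The same held for TXNRD1 when control replicate 1 (adjusted p = 0.0706), control replicate 2 (0.0571) or knockdown replicate 1 (0.0537) was left out. SRXN1, which repairs overoxidised peroxiredoxins, rose by 0.60, and TXNIP, which binds and inhibits thioredoxin, rose by 0.32 on the probe set used and by 0.32 on each of its 2 others.

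Of 5 peroxiredoxins, thiol peroxidases that pass electrons from thioredoxin to peroxides, 2 rose and 2 fell. Of all genes above the low mode, 36.4% rose and 25.4% fell. PRDX3, the mitochondrial form, rose by 0.30 ± 0.056 (SE, adjusted p = 0.00771), while the mean with its second, dim probe set differed by 0.11 (adjusted p = 0.0643). PRDX1 rose by 0.18 ± 0.049 (SE, adjusted p = 0.0367). PRDX1 was not called when control replicate 2 (adjusted p = 0.113), control replicate 3 (0.108), knockdown replicate 2 (0.108) or knockdown replicate 3 (0.113) was left out. PRDX2, a cytosolic form, read 14.16, 14.14 and 14.13 in control and 13.72, 13.74 and 13.81 in knockdown, with no overlap. It fell by 0.39 on the log2 scale (SE 0.033, adjusted p = 0.00027). PRDX4, the form of the endoplasmic reticulum, fell by 0.25, and PRDX6 differed by 0.14 without passing (adjusted p = 0.102).

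SOD2, the manganese superoxide dismutase of the mitochondrial matrix, rose by 0.63 ± 0.066 (SE, adjusted p = 0.000612) on its 1 probe set. Of the 4 probe sets that are also annotated to the overlapping transcript SOD2-OT1, the 3 above the low mode gave 0.80, 0.41 and 0.48, all called. SOD1, the cytosolic copper-zinc form, differed by 0.022 with overlapping groups and a 95% interval from -0.11 to 0.16, and the secreted form SOD3 lay in the low mode. Catalase, the hydrogen peroxide-degrading enzyme of peroxisomes encoded by CAT, rose by 0.25 on the probe set used. Another CAT probe set, at 8.87 in control, gave 0.11 (adjusted p = 0.406).

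Among the glutathione peroxidases only GPX4, which reduces lipid hydroperoxides within membranes, was called. Of all genes, 33.6% were called, and 61.8% of those above the low mode. GPX4 read 12.69, 12.63 and 12.66 in control and 13.08, 13.12 and 13.16 in knockdown. The groups did not overlap and GPX4 rose by 0.46 ± 0.034 (SE, adjusted p = 0.000151), or 1.38-fold. GPX1, the abundant cytosolic form, differed by 0.078 with a 95% interval from -0.0030 to 0.16 (adjusted p = 0.142), and GPX3, the secreted form, by 0.11 (adjusted p = 0.26). GPX8, of the endoplasmic reticulum, differed by -0.11 (adjusted p = 0.0725) on the probe set used, at 11.7 in control, and by -0.93 (adjusted p = 0.000123) on another at 10.8. GPX8 passed in 4 of the 19 settings. Among them were quantile normalization, at -0.12 (adjusted p = 0.0315), and the fit without knockdown replicate 3, at -0.13 (adjusted p = 0.043). Over the settings its difference ran from -0.52 to -0.085, and its lowest adjusted p was 8.47e-05. GPX2 and GPX7 lay in the low mode, and GPX7 passed without knockdown replicate 1, at 0.48 (adjusted p = 0.0243).

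All 4 glutathione transferases were called, where 61.8% of all genes above the low mode were. MGST1, a microsomal transferase with peroxidase activity toward lipid hydroperoxides, read 13.35, 13.33 and 13.39 in control and 14.37, 14.41 and 14.38 in knockdown. The groups did not overlap and the arrays within each were close, and MGST1 rose by 1.03 ± 0.029 (SE, adjusted p = 4.70e-06), or 2.05-fold. GSTP1, the main cytosolic transferase of many epithelial cells, whose promoter is printed above, rose by 0.51 ± 0.031 (SE). MGST2 rose by 0.22, and MGST3 fell by 0.30.

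Both measured iron genes rose, where 36.4% of all genes above the low mode did. TFRC, the transferrin receptor that brings iron into the cell, rose by 0.49 ± 0.032 (SE) on the probe set used and by 0.90 on its other bright one. FTL, the light chain of ferritin, which stores iron, rose by 0.21 ± 0.039 (SE, adjusted p = 0.00737) at 15.2 in control, near the top of the scale.

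The remaining pair of ferroptosis genes moved apart. ACSL4, which loads arachidonic acid and related fatty acids into membrane lipids and thereby supplies the substrate for peroxidation, read 10.50, 11.06 and 10.77 in control and 9.91, 9.40 and 9.69 in knockdown. Its arrays varied more than those of most members, with SDs of 0.28 and 0.25, yet the groups did not overlap. ACSL4 fell by 1.11 on the log2 scale (SE 0.18, adjusted p = 0.00407), to 0.46 of control. AIFM2, whose promoter is printed above, read 8.41, 8.36 and 8.28 in control and 9.19, 9.36 and 9.13 in knockdown. The groups did not overlap and AIFM2 rose by 0.87 ± 0.068 (SE, adjusted p = 0.000187), or 1.83-fold. Its other probe set, at 6.07 in control, gave 0.28 (adjusted p = 0.0684).

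Other probe sets mostly moved as the ones used. For called genes there were 24 further probe sets above the low mode, from 16 genes, and 23 of them differed in the same direction. Of these, 18 were called, from 13 genes, and 0 were called in the opposite direction. CTH gave -1.92 on its other probe set, SLC7A11 gave 1.39, and ACSL4 gave -1.11 and -1.41. MGST1 gave between 0.85 and 1.01 on 3 others. These probe sets were tested over all probe sets rather than over genes, and several of them, of the s_at and x_at types, may bind related transcripts.

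**Figure D3:**
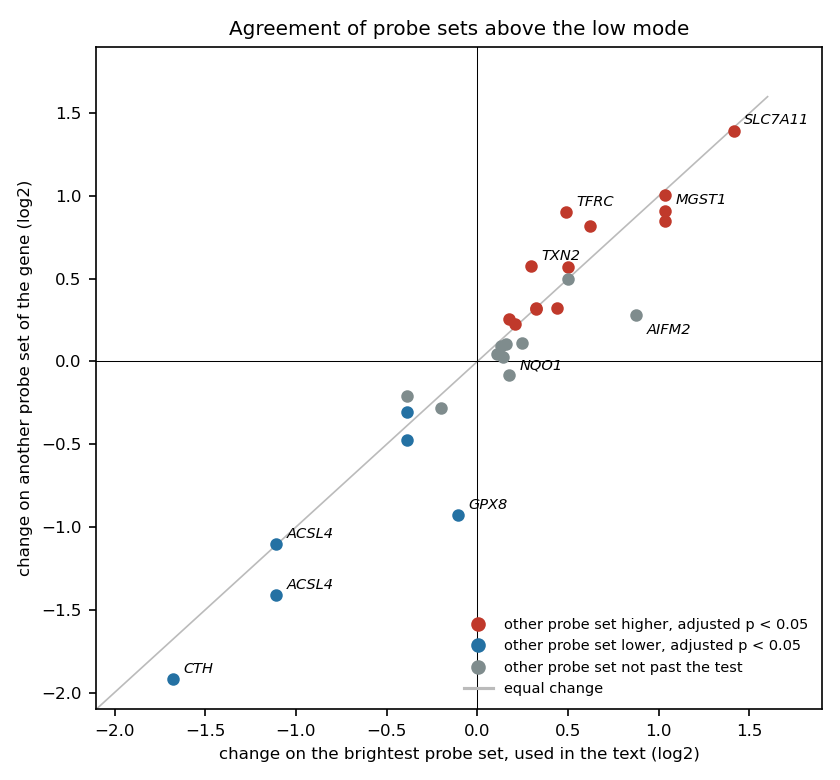
Difference on the brightest probe set of a gene (horizontal) and on each of its other probe sets above the low mode (vertical), both log2, with the line of equal change. CTH, ACSL4, SLC7A11 and MGST1 lie near the line, GPX8 and AIFM2 lie off it, and 1 NQO1 probe set is on the other side of 0.

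The differences of genes beside each member on its chromosome were also read, as the median over 25 genes above the low mode on either side, a measure chosen after seeing the data. Around GPX4 it was 0.54, beside 0.46 for GPX4 itself, and around PRDX2 it was -0.48, beside -0.39 for PRDX2. With that median subtracted, GPX4 changed by -0.073 (adjusted p = 0.111) and PRDX2 by 0.094 (adjusted p = 0.0496). The neighbours of ACSL4 had a median of -0.79, and ACSL4 less that median was -0.32 (adjusted p = 0.174). NQO1 (0.017, adjusted p = 0.679) and PRDX1 (0.061, adjusted p = 0.324) also lost their calls. SLC7A11 and MGST2 rose among neighbours whose medians were -0.47 and -0.50. SOD1, with neighbours at -0.43, came to 0.45 (adjusted p = 0.000855) after the subtraction, KEAP1 to 0.25 (adjusted p = 0.00495) and GCLC to 0.29 (adjusted p = 0.00137). These calls stand beside 11951 of all 19775 genes called after the subtraction. CTH had neighbours at 0.059, HMOX1 at 0.11 and AIFM2 at 0.016, far from their own differences. The neighbours of MGST1 and SRXN1 stood at 0.46 and 0.45, below both genes. The median was subtracted as a fixed value without error, and why neighbours moved was not tested.

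**Figure D4:**
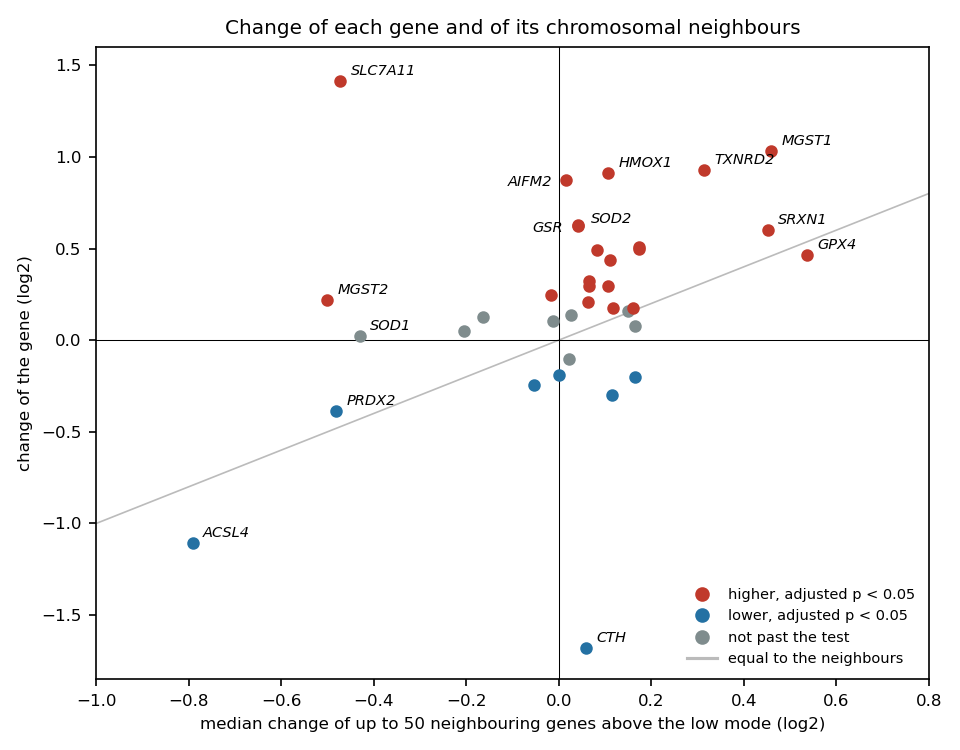
Log2 difference of each of the 36 genes above the low mode (vertical) against the median difference of up to 50 neighbouring genes above the low mode (horizontal), with the line where the gene equals its neighbours. GPX4 and PRDX2 lie near that line, while SLC7A11, CTH, AIFM2 and HMOX1 lie far from it.

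Other genes of these pathways, in 6 lists, were called in 68 of 98 cases above the low mode (69.4%, against 61.8% of all such genes). These lists, too, were chosen with earlier results of these data known. In all, 129 of the 137 listed genes were measured, of which 47 rose and 26 fell, where 19.7% of all genes rose and 13.9% fell. Of 12 NRF2 partners and regulators, 5 rose and 5 fell, with a median of 0.039. BACH1, the repressor at antioxidant response elements, read 10.38, 10.45 and 10.36 in control and 9.20, 8.70 and 9.12 in knockdown. Every knockdown array was more than a log2 unit below every control array, and BACH1 fell by 1.39 on the log2 scale (SE 0.13, adjusted p = 0.000421). NFE2L3, a relative of NRF2, fell by 0.79 and BACH2 fell by 1.19 within the low mode. The mitochondrial phosphatase PGAM5, which binds KEAP1, rose by 1.58, the autophagy receptor SQSTM1, which sequesters KEAP1, by 0.65, and NFE2L1 by 0.60. Neighbours above the low mode had medians of -0.41 around BACH1, -0.59 around NFE2L3, 0.011 around BACH2 and 0.43 around PGAM5. Around SQSTM1 and NFE2L1 they were 0.0050 and 0.068.

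Of 22 genes of NADPH supply and detoxification, 11 rose and 5 fell, with a median of 0.17. AKR1B10, an aldo-keto reductase, rose from the low mode at 2.44 to 5.58, the drug exporter ABCC3 rose by 1.49 and PIR by 1.47. AKR1C3 fell by 1.12 and the carbonyl reductases CBR3 and CBR1 by 0.98 and 0.59, while the AKR1C probe sets may bind more than 1 of these close paralogs. Of 32 genes of glutathione turnover and transfer, 10 rose and 3 fell, with a median of 0.059. GSTO2 rose by 1.21 within the low mode, from 3.36 to 4.56, GSTA4 by 0.99 and GLRX5, a mitochondrial glutaredoxin of iron-sulfur cluster assembly, by 0.74. SLC25A40 fell by 0.61, MAT2A by 0.34 and GGCT by 0.15, and another MAT2A probe set gave 0.25 (adjusted p = 0.0984). SLC25A39, which like SLC25A40 is tied to glutathione import into mitochondria, rose by 0.64.

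Of 22 genes of thiol repair and selenoprotein synthesis, 9 rose and 5 fell, with a median of 0.060. NXN, a thioredoxin relative, rose by 0.97, SELENOW by 0.84 and SEPHS2, which makes the selenium donor, by 0.60. The neighbours of these genes above the low mode had medians of 0.44, 0.063 and 0.51. SELENOP, a selenium transport protein, fell from 5.54 into the low mode at 2.95, SESN3 fell by 2.33 and the methionine sulfoxide reductase MSRA fell by 1.68. Of 27 genes of iron handling and lipid peroxidation, 10 rose and 4 fell, with a median of 0.061. GCH1, which makes tetrahydrobiopterin, rose by 1.49 (10.24, 10.04 and 10.23 in control, 11.58, 11.68 and 11.72 in knockdown), DHODH, which reduces coenzyme Q in mitochondria, by 0.95 and POR by 0.84. SAT1, a polyamine acetyltransferase, fell by 1.11, ACSL1 by 0.47 and STEAP3 by 0.36. Their neighbours above the low mode had medians of -0.045, -0.47 and 0.30, and another ACSL1 probe set gave -0.34 (adjusted p = 0.0828). Of 14 oxidant-producing enzymes, 2 rose and 4 fell, with a median of -0.0086. SMOX rose by 0.82 and CYBA by 0.18, while the NADPH oxidase NOX5 fell by 1.99, AOX1 by 1.10 and XDH by 1.64 within the low mode. Another NOX5 probe set gave -3.48. The medians stand beside 0.065 for all genes above the low mode and -0.00084 for all genes. Above the low mode, the shares called in the 6 lists, in the order given, were 81.8%, 88.2%, 57.1%, 61.9%, 66.7% and 71.4%. The share was 61.8% over all such genes. Differences of listed genes are given without subtracting those of their neighbours.

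**Figure D5:**
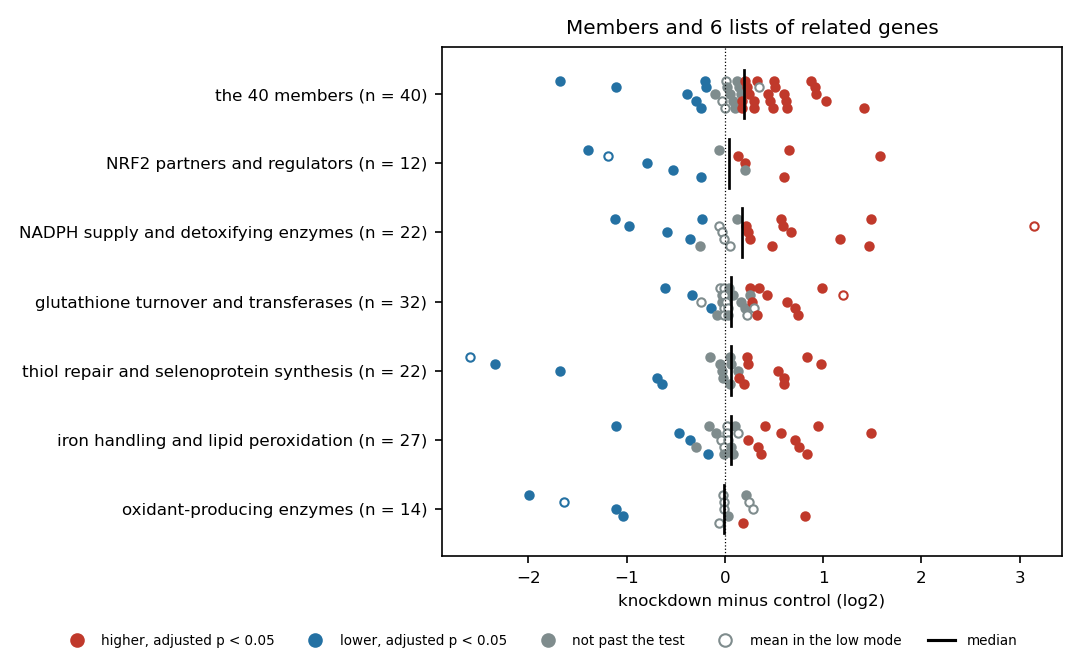
Log2 difference of the 40 members and of the measured genes of 6 related lists, 1 point a gene, with the median of each list as a bar; red and blue points passed the test and open points have a mean in the low mode. The members have a median of 0.19, and the 6 lists have medians between -0.0086 and 0.17.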

How the data were processed

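Biotinylated RNA, made from 250 ng of total RNA, was hybridised to U133 Plus 2.0 arrays, per the labels. The deposited values are log2 expression per probe set, a scale read from their range (0.826 to 16.6, array medians 3.16 to 3.23). Their background correction, normalization and summary are not given in the sources used here, so the first of these and the scan date could not be varied. The submitters' processing notes name Partek, with no version. The number of arrays limits the precision, and at most 0.0165% of values were identical between arrays.

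Of 54675 probe sets, 62 controls were left out, 41091 had 1 gene symbol, 1801 several and 11721 none. Groups came from the titles. limma 3.58.1 (lmFit and eBayes) was fitted in R 4.3.3 without covariates and was tested on simulated data. There it called 42% of 50 changes of 0.3 and 96% of 50 changes of 1, and 10 of 169 calls were false. The simulated noise was independent and normal, and far fewer genes were changed there than were called in these data. An exact permutation test of 3 against 3 arrays cannot go below 0.1. The boundary of the low mode is the minimum of the density of gene means. Given in full were members changed at least 2-fold, NFE2L2, KEAP1, NQO1, HMOX1, GCLM, GPX4 and AIFM2, and, from each list, up to 3 called genes a direction. The room given to PRDX2, BACH1, GCH1, SLC3A2 and SLC25A39 was decided after their values were seen. The members and lists were chosen with earlier results of these data known. Gene order and promoters came from RefSeq, GRCh38.p14. Alternatives changed the normalization, the filter on dim genes, the probe set, the variance model, the pairing, the arrays, the neighbours and the threshold.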

Additional observations from a re-analysis of the deposited data

How the results depend on the processing

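Across 19 alternative settings, 15 of the 28 called genes stayed called in every one that measured them, and of 746 values of a gene in a setting, 681 kept direction and call. Leaving out each array in turn gave 25 to 29 called members (20 to 23 higher, 5 to 7 lower), 5845 to 6457 of all genes and 65 to 70 of the related genes. At an adjusted p under 0.01, 4 members were lower. Without s_at and x_at probe sets, 44 related genes were called, AIFM2 came to 0.28 (adjusted p = 0.0539) and MGST3 to -0.0064, and TXNRD2 (-0.072) and CBS (-0.020) turned sign. The mean of all probe sets turned CBS (-0.0060) and GPX2 (0.0081), and array weights turned CBS (-0.0049). Leaving out arrays moved CBS between -0.0096 and 0.013, SOD1 between -0.020 and 0.072 and SOD3 between -0.0042 and 0.015, none called. With the median of neighbours above the low mode subtracted, chosen after seeing the data, PRDX2 (0.094), GPX4 (-0.073), GPX1 (-0.087) and SOD3 (-0.058) turned sign. That setting also called 11951 of all genes. With the planned median over all neighbours, PRDX2 was -0.061 (adjusted p = 0.235). NFE2L2 also passed after median centring (adjusted p = 0.0182), under array weights (0.0307) or a variance trend over intensity (0.0346), and among genes above the median gene (0.0414) or above the low mode (0.0435). GCLC also passed under quantile normalization (adjusted p = 0.0427), array weights (0.0182) and both neighbour settings (0.0425 and 0.00137). The mean of all probe sets took PRDX3 to 0.11 (adjusted p = 0.0643). The cause of these moves was not tested.

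Replicates with the same number did not deviate together (correlations of -0.21, -0.11 and 0.038), and unlike numbers gave -0.115 to 0.20. With 3 arrays a group, these values cannot decide whether the numbers pair the arrays. A fit with the replicate block called 25 members (19 higher, 6 lower) and 6057 of all genes, without TXN (adjusted p = 0.0989), PRDX1 (0.116) and MGST2 (0.0543). With 3 arrays a group, the smallest called difference of a member was 0.18, and 4 members lay in the low mode, where probe sets carry little signal.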
